A study of Homo sapiens with 8 samples.

Results

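The cadherin superfamily on these arrays comprised 79 genes, read from 80 transcript clusters, out of 18417 genes and 33297 clusters measured. A cluster belonged to the family when its only gene symbol in the platform annotation was a numbered CDH or PCDH gene, an A, B or G cluster protocadherin, a CDHR gene, a numbered DSG or DSC gene, or FAT1 to FAT4. The brightest cluster by mean stood for a gene, which mattered only for PCDHA2, with 2 clusters. By name the members were 21 cadherins, 18 beta, 12 alpha and 1 gamma protocadherin, 11 protocadherins outside those arrays, 7 desmosomal cadherins, 5 cadherin-related genes and 4 FAT cadherins, and 40 of the 79 lie on chromosome 5. A cluster shared by 15 alpha protocadherin symbols, 2 clusters shared by PCDH11X and PCDH11Y, and an antisense transcript of CDH4 were left out.

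Total RNA came from a pair of human myeloma cell lines, the parental U266/s and U266/LR7, derived from it and resistant to melphalan. Each line was measured with a negative control oligonucleotide and no drug (called untreated here), with 100 µM melphalan, a DNA-alkylating myeloma drug, with 100 nM inhibitors against miR-221 and miR-222, which are microRNAs, and with both, and RNA was taken 12 h after treatment. The labels are at odds over the samples with melphalan alone, which are tagged as not transfected, although the growth protocol describes a negative control for them too. If the tags are right, the melphalan and inhibitor contrasts also hold a transfection difference. Every condition was 1 array, 8 in all, and no condition was replicated. Whether U266/LR7 is a clone is not given in the sources used here. All values are log2 RMA signal, in which 1 unit is a 2-fold change.

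Cadherins are calcium-dependent transmembrane proteins that join neighbouring cells through their extracellular repeats. Classical cadherins hold beta-catenin, alpha-catenin and p120 catenins on their cytoplasmic tails, desmosomal cadherins hold plakoglobin and plakophilins that reach keratin through desmoplakin, and clustered protocadherins form tandem arrays in which each variable exon has its own promoter, selected with the help of CTCF and cohesin. Plasma cells normally sit loosely in the bone marrow, and N-cadherin (CDH2) is known from the malignant plasma cells of some myeloma patients.

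The arrays correlated at 0.986 to 0.996 within U266/LR7, 0.939 to 0.994 within U266/s and 0.909 to 0.933 between lines over all genes. All 10 plasma cell markers listed, among them JCHAIN, IRF4 and XBP1, lay above the floor on all 8 arrays. The floor of an array was the lower quartile of its gene values, between 5.81 and 5.86 in U266/LR7 and between 5.89 and 6.02 in U266/s, and is used as a mark of low signal rather than as a test of expression. The interquartile range over all clusters was 3.58 to 3.71, but only 3.25 for U266/s with melphalan alone and 3.34 for U266/s with both agents. In these bulk samples, fewer expressing cells and less RNA per cell cannot be told apart.

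Most members had low signal. On all 8 arrays 20 of 79 members (25.3%) lay above the floor, against 68.2% of all genes, and 39 (49.4%) lay above it on none, against 18.7%. Another 20 members were above it on some arrays. With the floor at the array median, 0 members were above it throughout and 65 nowhere. With the quartile taken over all clusters, the same counts were 38 and 21. Signal also moved little, with a median range over the 8 arrays of 0.66 against 0.847 for all genes, although the share with a range over 2 units was 10.1% for members and 10.3% for all genes.

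The 20 members above the floor throughout were mostly protocadherins. Alpha protocadherins supplied 8 of them, PCDHA1, PCDHA3, PCDHA5, PCDHA6, PCDHA7, PCDHA8, PCDHA12 and PCDHA13, and PCDHGB4 was the only gamma gene measured. The others were CDH24 and CDH22, which are type II cadherins, CDH17, the liver-intestine cadherin, CDH23, a tip-link protein of hair cells, CDH15, the muscle M-cadherin, PCDH1, PCDH7, PCDH10 and PCDH17 outside the arrays, CDHR4, and CDHR5, a brush border protein. CDH23, CDH15, PCDH17 and PCDH7 stayed close to the floor, at most 0.52 above it. Among beta protocadherins 0 of 18 were above the floor throughout and 15 nowhere, and among desmosomal cadherins 6 of 7 were above it nowhere. Sequences of clustered protocadherins are close to one another, so a probe set may also read a relative, and which relative gave the signal is uncertain.

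Among classical cadherins of known tissues, CDH1 (E-cadherin, of epithelia) lay between 5.51 and 5.81 in U266/LR7 and between 5.96 and 6.15 in U266/s. CDH5 (VE-cadherin, of endothelium) lay between 5.80 and 6.05 over all arrays, CDH3 (P-cadherin) between 5.39 and 5.80, and CDH11 (OB-cadherin, of osteoblasts and stroma) between 5.25 and 5.76. These genes stayed near or under the floor, which CDH1 passed on 3 arrays, all U266/s, CDH5 on 3 and CDH3 and CDH11 on 0.

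The largest difference between the lines was in DSG2, desmoglein 2, the desmosomal cadherin of simple epithelia and heart. DSG2 signal in U266/s was 10.69 untreated, 10.57 with inhibitors, 7.51 with melphalan and 8.61 with both. In U266/LR7 it was 3.87, 3.87, 4.22 and 4.18 in the same order. Every U266/s array was above every U266/LR7 array, and all U266/LR7 arrays were under the floor, which limits how large the fold can be. The additive fit put U266/LR7 at -5.31 ± 0.56 (SE) against U266/s (limma adjusted p = 0.000447). Without melphalan the difference was -6.76 ± 0.25 and with melphalan -3.86 ± 0.25.

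CDH2, N-cadherin, a classical cadherin of neural, muscle and mesenchymal cells, had the next largest line difference and was also higher in U266/s. Its signal in U266/s was 9.63 untreated, 9.71 with inhibitors, 7.83 with melphalan and 8.10 with both, and in U266/LR7 5.56, 5.40, 5.35 and 5.03. The lines did not overlap, and U266/LR7 was again under the floor on 4 of 4 arrays. The line difference was -3.48 ± 0.28 (limma adjusted p = 0.000164), or -4.19 ± 0.16 without melphalan. DSG2 and CDH2 were the 2 members above the floor on all 4 U266/s arrays and on 0 U266/LR7 arrays.

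CDH2 and DSG2 are the end genes of a row on chromosome 18 that also holds DSC3, DSC2, DSC1, DSG1, DSG4 and DSG3 between them, in the gene order of RefSeq on GRCh38.p14. These neighbours were looked at after their values had been seen. The 6 genes between the ends were above the floor on 0 of 8 arrays, with values from 3.84 (DSC3) to 5.52 (DSG3). Beyond the row, AQP4, CHST9 and TTR were under the floor on all arrays too. B4GALT6, the next gene after TTR, was above it on 6 arrays, with 7.50 to 8.21 in U266/LR7 and, in U266/s, 8.32 untreated, 7.35 with inhibitors, 5.93 with melphalan and 5.78 with both. The promoters of the end genes are shown for comparison, from RefSeq on GRCh38.p14, each 300 bases running from 250 before to 50 after the annotated start, 5′ to 3′ in the direction of transcription. Capitals mark CAGGTG on either strand (CACCTG on the other), an E-box form that the repressors of the SNAI and ZEB families bind. DSG2 lies on the plus strand at chr18:31497927-31498226 and CDH2 on the minus strand at chr18:28177081-28177380.
DSG2: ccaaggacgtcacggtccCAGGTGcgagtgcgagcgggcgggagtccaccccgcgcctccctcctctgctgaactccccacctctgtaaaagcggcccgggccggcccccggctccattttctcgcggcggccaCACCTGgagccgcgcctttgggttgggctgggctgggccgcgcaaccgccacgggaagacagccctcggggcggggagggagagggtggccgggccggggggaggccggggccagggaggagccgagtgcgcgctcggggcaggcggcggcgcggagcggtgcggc
CDH2: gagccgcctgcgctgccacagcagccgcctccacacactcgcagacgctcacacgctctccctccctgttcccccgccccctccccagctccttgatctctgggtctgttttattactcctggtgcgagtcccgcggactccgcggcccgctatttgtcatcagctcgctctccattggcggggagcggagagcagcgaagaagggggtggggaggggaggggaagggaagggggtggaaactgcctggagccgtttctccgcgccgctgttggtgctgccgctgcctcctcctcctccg
The DSG2 window held 2 matches and the CDH2 window 0. Among the 27305 promoters listed there, 20.6% held at least 1, and of the 57 members with a promoter there 7 (12.3%) did, including 3 of 6 desmosomal genes.

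**Figure D1:**
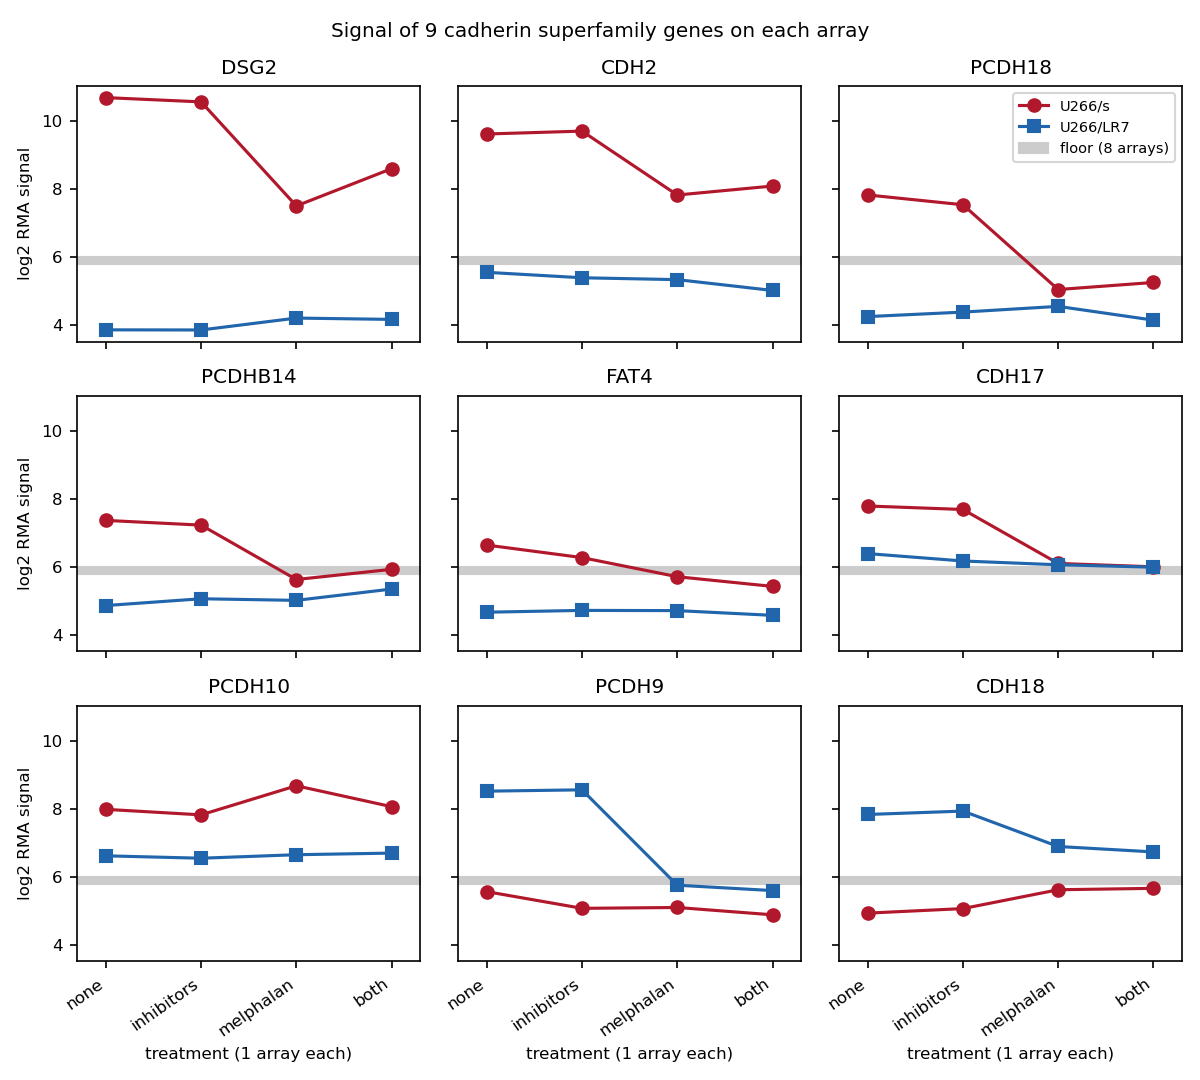
Log2 RMA signal (vertical axis) of 9 members under each treatment (horizontal axis, 1 array each) in U266/s (red circles) and U266/LR7 (blue squares); the grey band spans the floors of the 8 arrays. DSG2 and CDH2 stand above the band in U266/s and below it in U266/LR7, while PCDH9 and CDH18 are high in U266/LR7 without melphalan.

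Single protocadherins and FAT cadherins also differed between the lines, 6 of 11 outside the arrays, 6 of 18 beta, 2 of 12 alpha, 0 of 1 gamma and 2 of 4 FAT genes, where 33.5% of all genes did. PCDH18, a delta-type protocadherin, had 7.83 and 7.55 in U266/s without melphalan (untreated and with inhibitors) and 5.06 and 5.26 with it (melphalan alone and with both). In U266/LR7 PCDH18 lay between 4.16 and 4.56. The lines did not overlap, and only the U266/s arrays without melphalan passed the floor. Its line difference was -2.08 ± 0.48 (limma adjusted p = 0.0129), and -3.36 ± 0.17 without melphalan. Left without the U266/LR7 inhibitor array, the additive difference was -1.82 and missed the threshold (adjusted p = 0.0502).

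PCDH10, the neighbour of PCDH18 on chromosome 4 among genes measured here and also a delta-type protocadherin, differed without a floor in the way. Its signal was 7.99, 7.83, 8.69 and 8.07 in U266/s (untreated, inhibitors, melphalan, both) and 6.63, 6.56, 6.66 and 6.71 in U266/LR7. Every array was above the floor, and the lines did not overlap. The difference of -1.51 ± 0.15 (limma adjusted p = 0.000336) held in every alternative run.

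FAT4, a giant cadherin that binds DCHS1 in planar polarity signalling, stood in U266/s at 6.65 untreated, 6.28 with inhibitors, 5.72 with melphalan and 5.44 with both, and between 4.59 and 4.73 in U266/LR7. The lines did not overlap, although 6 of the 8 values were under the floor. The line difference was -1.34 ± 0.18 (limma adjusted p = 0.00122). FAT1, a related giant cadherin, had 6.47, 6.24, 6.05 and 5.84 in U266/s (untreated, inhibitors, melphalan, both) and 5.59, 5.21, 5.54 and 5.75 in U266/LR7, without overlap. It was lower by -0.63 ± 0.16 (limma adjusted p = 0.0198). Its call was lost with quantile normalization (adjusted p = 0.06), with cyclic loess (adjusted p = 0.0843), and without the U266/LR7 melphalan, U266/LR7 inhibitor or U266/s inhibitor array (adjusted p = 0.052, 0.0619 and 0.0718). FAT2 and FAT3 were above the floor on 0 arrays and were not called.

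The beta protocadherin PCDHB14 had 7.38 untreated and 7.24 with inhibitors in U266/s, against 5.64 with melphalan and 5.94 with both. In U266/LR7 it lay between 4.88 and 5.36. The lines did not overlap, and the U266/LR7 arrays were all under the floor. Its line difference was -1.46 ± 0.33 (limma adjusted p = 0.012). The beta gene PCDHB9 had 6.17 to 6.43 in U266/s against 5.51 to 5.85 in U266/LR7, a difference of -0.65 ± 0.11 (limma adjusted p = 0.00361).

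PCDH9 and CDH18 went the other way. PCDH9, a delta-type protocadherin of the nervous system, had 8.53 untreated and 8.57 with inhibitors in U266/LR7, and 5.76 and 5.61 with melphalan alone and with both. In U266/s PCDH9 lay between 4.89 and 5.57, under the floor throughout. U266/LR7 without melphalan was far above all other arrays, and with melphalan it came down to just above the highest U266/s array. The line difference of 1.95 ± 0.47 (limma adjusted p = 0.0157) was 3.22 ± 0.15 without melphalan. Without the U266/LR7 inhibitor array the additive difference was 1.57 (adjusted p = 0.0511).

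CDH18, a type II classical cadherin of the brain, had 7.84, 7.94, 6.90 and 6.74 in U266/LR7 (untreated, inhibitors, melphalan, both). In U266/s it had 4.94, 5.08, 5.63 and 5.67. All U266/LR7 arrays were above the floor and above all U266/s arrays, which were under it. The difference was 2.03 ± 0.32 (limma adjusted p = 0.00261), and 2.88 ± 0.14 without melphalan. The promoters of these members, which both fell with melphalan in U266/LR7 as described further on, are on the minus strand at chr13:67230287-67230586 (PCDH9) and chr5:20575664-20575963 (CDH18), printed as above, from the same table and with the same capitals.
PCDH9: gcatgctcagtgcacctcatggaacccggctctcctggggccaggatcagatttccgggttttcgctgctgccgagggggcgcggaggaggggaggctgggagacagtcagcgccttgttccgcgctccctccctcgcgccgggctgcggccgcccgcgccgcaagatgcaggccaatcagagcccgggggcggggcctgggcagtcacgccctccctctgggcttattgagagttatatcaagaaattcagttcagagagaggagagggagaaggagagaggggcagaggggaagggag
CDH18: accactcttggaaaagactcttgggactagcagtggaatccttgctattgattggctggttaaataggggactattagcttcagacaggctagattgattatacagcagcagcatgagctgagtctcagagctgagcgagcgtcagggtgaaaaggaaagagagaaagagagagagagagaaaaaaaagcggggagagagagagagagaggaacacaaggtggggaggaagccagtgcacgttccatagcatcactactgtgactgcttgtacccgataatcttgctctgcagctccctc
Neither window held CAGGTG. The PCDH9 window has 65.7% G and C and the CDH18 window 48.7%, against a median of 46.3% over the members and 58.3% over all promoters.

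Over all members, 22 of 79 (27.8%) differed between the lines by limma at an adjusted p under 0.05, 7 higher and 15 lower in U266/LR7, against 33.5% of all genes, 18% higher and 15.5% lower. The members' share was thus below the share of all genes, and the median difference was -0.13 for members and -0.07 for all genes. Differences of at least 2-fold were found in 2 higher and 6 lower members. The smaller calls included PCDH20 (0.55), PCDHB15 (0.63), PCDHB8 (0.49), PCDH15 (0.39) and PCDHA1 (0.39) on the higher side. On the lower side they included PCDHA10 (-0.49), CDH20 (-0.45), CDH1 (-0.44), PCDH1 (-0.43), PCDHB18P (-0.40), PCDHB10 (-0.39) and CDH19 (-0.28). Of these smaller calls, PCDHB8, PCDH15, CDH20, PCDHB18P, PCDHB10 and CDH19 were under the floor on every array of both lines. CDH1 was not called with cyclic loess (adjusted p = 0.0655), nor on the arrays with melphalan (0.0563). PCDHA10 kept its call in 6 of 15 alternatives, PCDH1 in 8, PCDHB8 in 9, PCDH15 in 10, PCDHA1 in 11 and PCDHB15 in 12, whereas PCDH20 kept it in all 15. Without the U266/LR7 inhibitor array PCDH1, PCDHB8, PCDH15, PCDHA1 and PCDHB15 all missed the threshold (limma adjusted p = 0.0557 to 0.0768). PCDHA10 missed it with quantile and cyclic loess normalization (0.0939 and 0.0965) and without each array in turn (0.0537 to 0.116), except the U266/LR7 inhibitor and U266/s untreated arrays. Under all 3 further normalizations 7 of 7 higher and 9 of 15 lower calls were kept. The count was 14 without the U266/LR7 melphalan, the U266/s inhibitor or the U266/s combination array, and 12 without the U266/LR7 inhibitor array. Calls over all genes dropped in these runs too, to 4639, 4362, 4568 and 4712 in that order, against 6172 with all arrays.

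The 4 arrays of a line did not overlap the 4 of the other for 20 members (25.3%), 15 lower and 5 higher in U266/LR7. Among all genes this held for 31.1%, 15.2% lower and 15.9% higher. Without melphalan 19 members were called (8 higher and 11 lower), against 34.7% of all genes, 16.9% higher and 17.8% lower. With melphalan 23 were called (4 higher and 19 lower), against 51.7% of all genes, 27.7% higher and 24% lower. CDH17 was called lower in U266/LR7 only in the fit without melphalan (-1.46 ± 0.13), and PCDHGB4 higher (0.67 ± 0.16). Their melphalan by line terms are given further on.

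**Figure D2:**
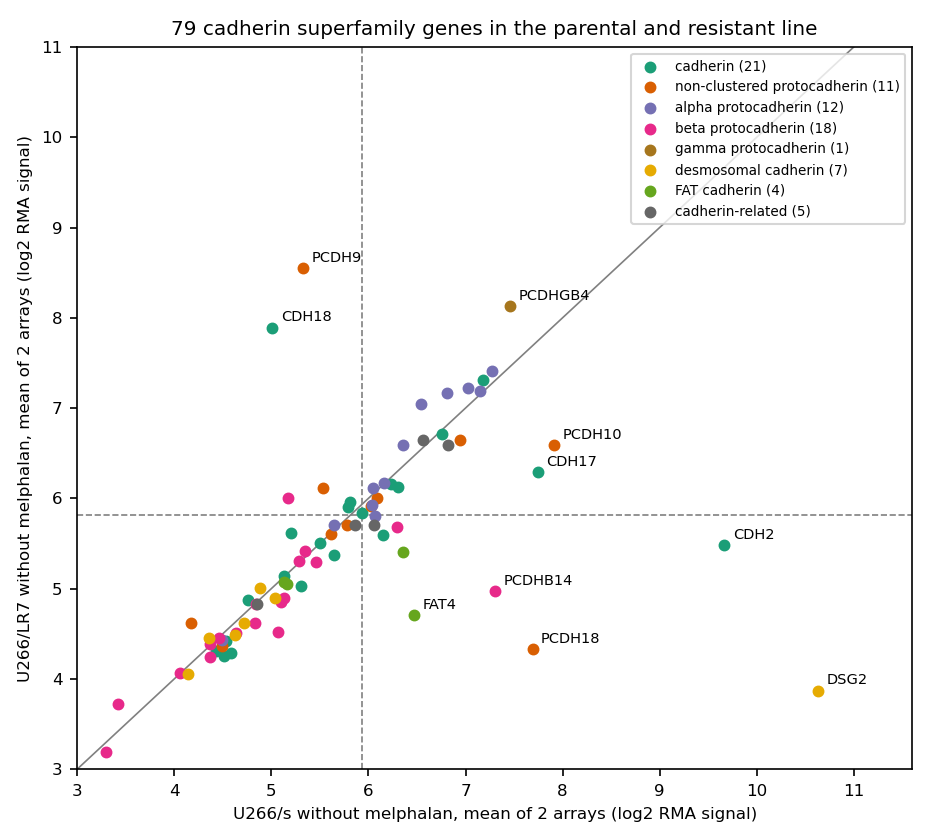
Mean log2 RMA signal of the 2 arrays without melphalan in U266/s (horizontal axis) and U266/LR7 (vertical axis) for all 79 members, coloured by family, with equality as a solid line and the mean floors dashed. Most points lie near the line and at low signal, and DSG2, CDH2, PCDH18 and PCDHB14 on one side and PCDH9 and CDH18 on the other stand apart.

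In U266/s, 6 members fell with melphalan, and all had higher signal in this line than in U266/LR7 without the drug. The differences were -2.57 ± 0.25 for DSG2 (limma adjusted p = 1.53e-05), -2.53 ± 0.17 for PCDH18 (2.63e-06), -1.70 ± 0.16 for CDH2 (1.44e-05), -1.69 ± 0.13 for CDH17 (5.12e-06), -1.52 ± 0.15 for PCDHB14 (1.67e-05) and -0.89 ± 0.14 for FAT4 (0.000451). PCDH10, also higher in U266/s, did not fall. CDH17, which lacks the catenin-binding tail of classical cadherins, went from 7.80 and 7.70 (untreated and with inhibitors) to 6.11 and 6.01 (melphalan alone and with both), the level of U266/LR7, whose arrays had 6.40 untreated, 6.18 with inhibitors, 6.07 with melphalan and about 6 with both. In each of the 6 genes both U266/s arrays with melphalan were below both without it. All 6 calls held under median centring, quantile and cyclic loess normalization and without any single array. PCDH18, PCDHB14 and FAT4 ended under the floor on both melphalan arrays, and CDH17 ended at most 0.10 above it. This limits how large the falls of these genes can be. FAT1 was at -0.41 ± 0.16 and not called (adjusted p = 0.0529), but passed with quantile and cyclic loess normalization (0.0282 and 0.0116). The gene spans of the 6 in RefSeq ran from 4.4 kb (PCDHB14) to 244.3 kb (CDH2). Their median was 70.4 kb, against 135.15 kb for the members called higher and 43.6 kb for those not called.

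More members rose than fell there, by smaller amounts. In all 28 of 79 members (35.4%) were called, 22 higher and 6 lower, against 43.4% of all genes, 18.4% higher and 24.9% lower. Their median was 0.20, against 0.08 for all genes. None of the 22 rises reached 2-fold, while 5 of the 6 falls did. The melphalan arrays of U266/s were also those with the narrower signal range given above, and the part of that range in the rises was not tested. With cyclic loess 7 members were called higher and 10 lower, with quantile normalization 16 and 9, and with median centring 27 and 6. Fewer members were called without the U266/s untreated or the U266/s melphalan array, and fewer of all genes were called in these runs too.

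Alpha protocadherins made up 10 of the 22 rises, and 10 of 12 alpha genes rose, where 18.4% of all genes did. These genes share their annotated end and a probe set may also read a relative, so the calls need not be independent. PCDHA10 had 6.06 untreated and 6.07 with inhibitors in U266/s, and 7.11 with melphalan and 6.85 with both, so its arrays with and without melphalan did not overlap. It rose by 0.91 ± 0.16 (limma adjusted p = 0.000881). PCDHA13 went from 7.17 and 7.13 to 7.98 and 7.84, again without overlap, a rise of 0.76 ± 0.16 (adjusted p = 0.00309). PCDHA6 (0.62), PCDHA11 (0.59), PCDHA5 (0.55), PCDHA8 (0.55), PCDHA12 (0.50), PCDHA3 (0.45), PCDHA1 (0.38) and PCDHA2 (0.37) rose as well, whereas PCDHA4 and PCDHA7 were not called. PCDHA11 was under the floor on every array.

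The family's median difference was 0.52 over 12 genes, and it stayed above 0 under every scaling tried. The number called did not stay, with 11 under median centring, 8 with quantile normalization and 4 with cyclic loess, where the median was 0.38. Without the U266/s untreated or the U266/s inhibitor array 3 alpha genes were called in each case, without the U266/s melphalan array 5, without the U266/s combination array 6, and 7 without either U266/LR7 array with melphalan. A cluster shared by 15 alpha symbols, left out of the members, had 5.34 and 5.52 in U266/s without melphalan and 5.66 and 5.71 with it, all under the floor. In U266/LR7 the alpha median with melphalan was 0.15, and 0 of 12 were called. The melphalan by line term was also called for 0 of 12 alpha genes, against 23.9% of all genes. A different alpha response in the 2 lines was therefore not shown. That count was 1 after median centring and 2 with quantile normalization.

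**Figure D3:**
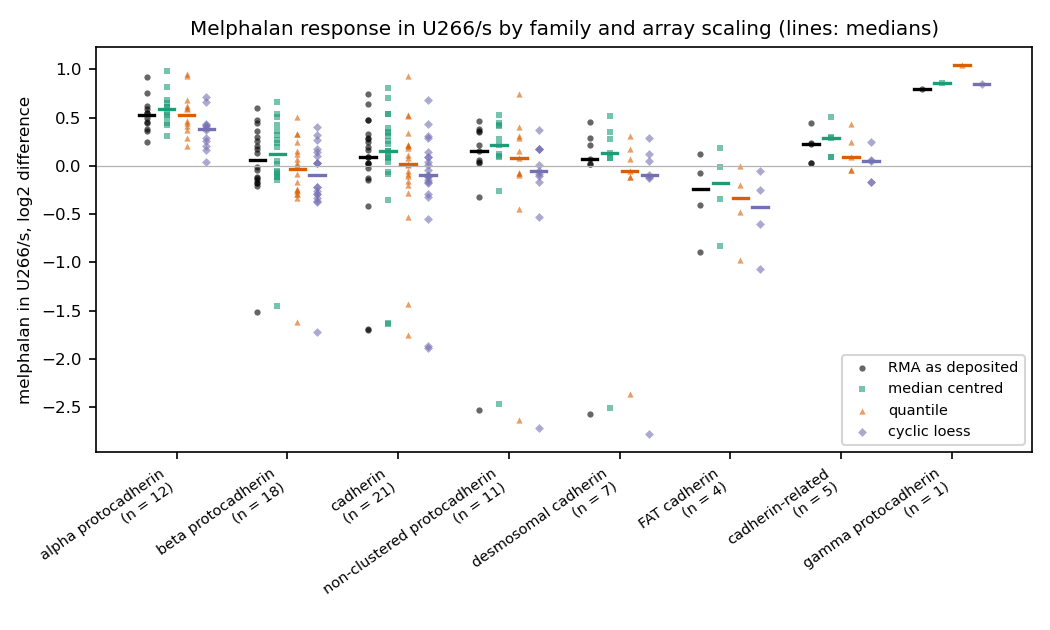
Melphalan difference in U266/s (log2, vertical axis) of each member by family (horizontal axis, n genes each) under the deposited RMA values and 3 further scalings, with short lines at the medians. The alpha protocadherin median lies above 0 under all 4 scalings, lowest at 0.38 with cyclic loess, whereas the cadherin and beta medians turn negative with cyclic loess.

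Outside the alpha array, PCDHGB4, a gamma protocadherin, went from 7.29 and 7.63 in U266/s without melphalan to 8.33 and 8.18 with it, without overlap, and rose by 0.80 ± 0.16 (limma adjusted p = 0.0024). CDH24, a type II cadherin, went from 7.12 and 7.23 to 7.99 and 7.86 and rose by 0.74 ± 0.14 (adjusted p = 0.00128). These members were above the floor on all arrays. CDH18 rose by 0.64 ± 0.14 (adjusted p = 0.00282), from 4.94 and 5.08 to 5.63 and 5.67, without overlap but under the floor. PCDHB15 rose by 0.60, PCDH10 by 0.47, CDH22 by 0.47, CDH6 by 0.47, PCDHB12 by 0.47, DSC1 by 0.45, PCDHB18P by 0.45, CDHR4 by 0.44 and PCDH8 by 0.38. Among these, CDH6, PCDHB12, DSC1 and PCDHB18P were under the floor on every array. PCDHB15 passed it in U266/s only with melphalan alone, and PCDH8 only on the U266/s arrays with melphalan. Of the 22 rises, the 7 called under all 3 further normalizations were CDH18, CDH24, PCDHA8, PCDHA10, PCDHA11, PCDHA13 and PCDHGB4. PCDHA8 and PCDHA11 were not called without the U266/s melphalan array (limma adjusted p = 0.0814 and 0.149) or the U266/s inhibitor array (0.0786 and 0.0554), nor PCDHA11 without the U266/s untreated array (0.0727), and the other 5 of these kept their call without any single array.

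Of the beta protocadherins 3 rose (PCDHB12, PCDHB15 and PCDHB18P) and 1 fell (PCDHB14), with a median of 0.06 over 18 genes, which was negative with quantile and cyclic loess normalization. Clustered protocadherin promoters are known for a conserved element with the letters CGCT. The windows of PCDHB14, which fell, and of PCDHA10 and PCDHGB4, which rose, are shown to set them side by side. All are on the plus strand of chromosome 5, at chr5:141223093-141223392, chr5:140855647-140855946 and chr5:141387448-141387747 in that order (RefSeq, GRCh38.p14). Capitals now mark CGCT on either strand (AGCG on the other).
PCDHB14: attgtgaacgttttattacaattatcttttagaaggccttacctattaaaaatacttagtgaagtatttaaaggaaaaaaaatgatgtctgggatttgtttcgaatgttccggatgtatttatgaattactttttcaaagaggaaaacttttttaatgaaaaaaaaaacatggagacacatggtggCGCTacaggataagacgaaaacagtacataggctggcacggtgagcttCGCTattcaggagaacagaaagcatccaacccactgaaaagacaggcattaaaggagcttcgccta
PCDHA10: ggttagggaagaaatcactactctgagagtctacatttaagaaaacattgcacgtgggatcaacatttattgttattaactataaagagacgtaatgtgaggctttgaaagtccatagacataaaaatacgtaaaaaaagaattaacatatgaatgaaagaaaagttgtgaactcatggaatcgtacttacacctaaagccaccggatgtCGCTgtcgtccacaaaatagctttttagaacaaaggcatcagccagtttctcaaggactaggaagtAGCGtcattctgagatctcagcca
PCDHGB4: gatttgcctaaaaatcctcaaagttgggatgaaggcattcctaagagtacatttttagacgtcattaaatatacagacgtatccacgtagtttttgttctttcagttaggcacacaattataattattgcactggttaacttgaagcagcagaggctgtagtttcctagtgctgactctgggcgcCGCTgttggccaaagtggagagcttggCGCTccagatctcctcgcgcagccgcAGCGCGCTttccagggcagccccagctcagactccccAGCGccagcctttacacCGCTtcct
The windows held 2, 2 and 6 matches, which can touch one another. At least 1 match was present in 10 of 10 alpha and 14 of 14 beta promoters in the table, in 91.2% of the members' promoters and in 69.4% of all promoters. G and C made up 35.7%, 37.3% and 49.7% of these windows. The letters were in the window of the gene that fell and in the windows of both that rose. As every alpha and beta promoter listed held them, their presence cannot tell falls from rises.

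In U266/LR7, melphalan lowered PCDH9 and CDH18 and no other member was called. PCDH9 fell by 2.86 ± 0.15 (limma adjusted p = 1.16e-05), with both melphalan arrays under the floor and both others well above it, as printed above. CDH18 fell by 1.07 ± 0.14 (adjusted p = 0.00124), and its 4 arrays stayed above the floor. These 2 of 79 calls (2.53%), 0 higher and 2 lower, compare with 6.62% of all genes, 3.02% higher and 3.61% lower, and the median difference was 0.08 for members and 0.05 for all genes. Both calls held under 3 further normalizations and without any single array. The largest positive values not called were PCDHA10 (0.46 ± 0.16, adjusted p = 0.125), CDH24 (0.43 ± 0.14, 0.0985) and PCDHA6 (0.39 ± 0.15, 0.183). In RefSeq, PCDH9 spans 927.5 kb and CDH18 1104.4 kb. CDH12, of 1102.7 kb, and PCDH15, of 1825.2 kb, were under the floor and not called. The part of gene span was not tested.

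The melphalan difference itself differed between the lines for 9 of 79 members (11.4%), 6 with a positive and 3 with a negative term, against 23.9% of all genes, 17.9% positive and 5.99% negative. The term is the difference in U266/LR7 minus that in U266/s. It was 2.90 ± 0.35 for DSG2 (limma adjusted p = 0.000285), 2.56 ± 0.24 for PCDH18 (1e-04), 1.74 ± 0.21 for PCDHB14 (0.000285), 1.43 ± 0.18 for CDH17 (0.000386), 1.41 ± 0.23 for CDH2 (0.00122) and 0.84 ± 0.20 for FAT4 (0.0106). In U266/LR7 the same genes had differences of 0.33, 0.03, 0.22, -0.25, -0.29 and -0.05, none called. DSG2, PCDH18, PCDHB14, CDH2 and FAT4 were under the floor in U266/LR7 on all 4 arrays, and CDH17 at most 0.58 above it, so these terms do not show a smaller response there.

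Negative terms were found for PCDH9 (-2.53 ± 0.21, limma adjusted p = 8.61e-05), CDH18 (-1.71 ± 0.19, 0.000211) and PCDHGB4 (-0.89 ± 0.23, 0.0167). PCDH9 was in turn under the floor in U266/s, where its difference was -0.33 ± 0.15 and not called (adjusted p = 0.096). CDH18 was called in opposite directions, lower in U266/LR7 and higher in U266/s, the latter under the floor. PCDHGB4 was above the floor on all 8 arrays, and its difference was -0.09 ± 0.16 in U266/LR7, where its values were 8.03, 8.22, 7.83 and 8.24 (untreated, inhibitors, melphalan, both). Its term missed the threshold without the U266/LR7 melphalan (adjusted p = 0.119), the U266/s untreated (0.0988) or the U266/s melphalan array (0.0895). The FAT4 term did so without the U266/LR7 untreated (0.0523), the U266/LR7 combination (0.0521) or the U266/s untreated array (0.0615). The other 7 terms kept their call in every alternative they entered.

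**Figure D4:**
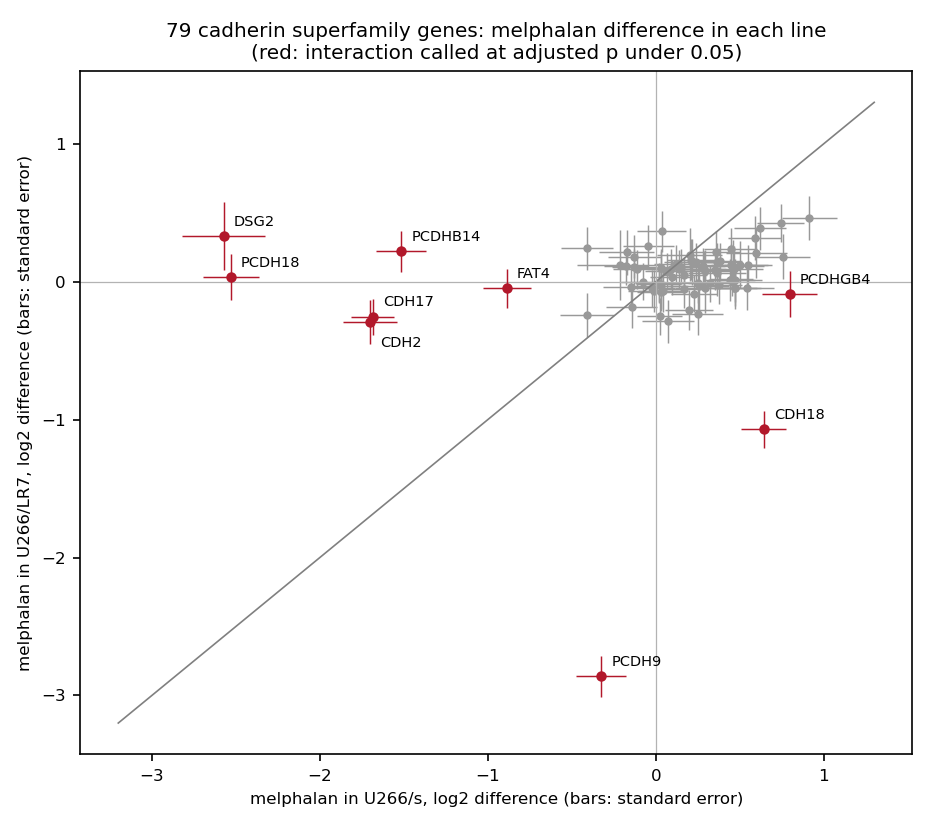
Log2 difference with melphalan in U266/s (horizontal axis) and U266/LR7 (vertical axis) for the 79 members, with standard errors as bars, equality as a diagonal line and the 9 members called for a difference between lines in red. DSG2, PCDH18, CDH2, CDH17, PCDHB14 and FAT4 lie to the left with vertical values near 0, PCDH9 and CDH18 lie low, and the members not called for the difference lie between -0.41 (CDH12 and FAT1) and 0.91 (PCDHA10) on the horizontal axis.

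The inhibitors gave no call among the members. They are aimed at microRNAs that share their seed, bases 2 to 8, given in capitals in the RefSeq mature sequences (GRCh38.p14), which shows that both carry the same target-recognition letters.
hsa-miR-221-3p: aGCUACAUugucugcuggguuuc
hsa-miR-222-3p: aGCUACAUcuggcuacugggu
By limma 0 of 79 members and 0% of all genes passed, and at an unadjusted p under 0.05 there were 1 member and 375 genes. That member was PCDH19, a delta-type protocadherin under the floor on all arrays (0.22 ± 0.07, unadjusted p = 0.0184, higher in 4 of 4 matched pairs, limma adjusted p = 0.999887). The largest values were 0.23 for DSG2, CDHR2 and PCDHA1 on the higher side, and -0.21 for PCDH9, -0.20 for PCDH10 and -0.18 for FAT4 among members above the floor somewhere on the lower side. DSG2 was higher with inhibitors in 1 of 4 pairs, U266/s with melphalan, where it was 7.51 without them and 8.61 with them. The member count was 0 in every alternative, and with the melphalan by line term 8 genes outside the family were called.

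Among the partners of classical cadherins, 2 of 13 measured catenin and junction genes were higher in U266/LR7 and 4 lower (46.2% called, against 33.5% of all genes). In U266/s 1 rose and 5 fell with melphalan (46.2% called, against 43.4%). NECTIN3, a nectin that starts adherens junctions, had 9.27, 8.86, 6.58 and 6.73 in U266/s (untreated, inhibitors, melphalan, both) and between 4.78 and 5.16 in U266/LR7. The lines did not overlap, and as for CDH2 the U266/s arrays with melphalan lay between the others of that line and U266/LR7. NECTIN3 differed between lines by -2.96 ± 0.41 (limma adjusted p = 0.00151) and fell by 2.41 ± 0.16 with melphalan in U266/s (2.63e-06). NECTIN1 was lower in U266/LR7 as well (-1.47 ± 0.12) and CTNND2, a p120-type catenin, too (-0.84 ± 0.09). JUP, plakoglobin, which serves both junction types, was higher (0.55 ± 0.12).

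CTNNB1, beta-catenin, lay between 9.86 and 11.37 over all arrays, lowest on the U266/s melphalan arrays. Its difference there was -1.27 ± 0.14 (limma adjusted p = 3.23e-05), that of CTNNA1, alpha-catenin, -1.02 ± 0.19 (0.0012) and that of VCL, vinculin, -1.01 ± 0.19 (0.00142). In U266/LR7 only CTNNA1 of this list passed, with a fall of 0.77 ± 0.19 (0.0344). The line terms of melphalan were called for NECTIN3 (2.20), CTNNB1 (1.44), CTNNAL1 (0.71) and CTNNA3 (-0.83). NECTIN3 was under the floor on all U266/LR7 arrays, so its term does not show a smaller response there. CTNNA3 was under the floor on those arrays too, and in U266/s it passed the floor only with melphalan alone. CTNNB1 and CTNNA1 were above the floor on all 8 arrays, also in U266/LR7, where CDH2 was under it.

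Of 8 desmosomal plaque genes 1 was higher and 2 were lower in U266/LR7 (37.5% called, against 33.5% of all genes), and 1 rose and 3 fell with melphalan in U266/s (50%, against 43.4%). PKP2, plakophilin 2, had 11.78, 11.83, 11.50 and 11.30 in U266/LR7 and 11.15, 11.12, 9.08 and 9.24 in U266/s (untreated, inhibitors, melphalan, both). It was higher in U266/LR7 on every array, by 1.46 ± 0.30 (limma adjusted p = 0.00879), and fell by 1.98 ± 0.13 with melphalan in U266/s (2.63e-06). DSP, desmoplakin, went with DSG2 in being lower in U266/LR7, with 5.10 to 5.22 there against 7.43, 6.99, 6.57 and 6.23 in U266/s (same order). Its difference was -1.63 ± 0.18 (adjusted p = 0.000528), and its fall in U266/s 0.81 ± 0.16 (0.00157). PKP4 was lower by -0.61 ± 0.14 and fell with melphalan in U266/s (-0.41 ± 0.15) and U266/LR7 (-0.72 ± 0.15).

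Repressors of cadherin genes were lower in U266/LR7 in 5 of 9 cases and higher in 0, where 15.5% of all genes were lower and 18% higher, and their median difference was -0.47 against -0.07. SNAI2, slug, had 8.61, 8.29, 7.45 and 7.49 in U266/s (untreated, inhibitors, melphalan, both) and between 5.51 and 5.74 in U266/LR7. The line difference was -2.37 ± 0.22 for SNAI2 (limma adjusted p = 0.000263), -1.34 ± 0.23 for TWIST1 and -1.09 ± 0.14 for TCF3. With melphalan in U266/s, 2 repressors rose and 5 fell, against 18.4% and 24.9% of all genes. SNAI1, snail, rose from 6.59 and 6.61 to 8.71 and 8.57, by 2.04 ± 0.17 (adjusted p = 7.94e-06), while ZEB1 changed by -2.35 ± 0.18 (5.12e-06) and ZEB2 by -1.36 ± 0.19 (0.000212). SNAI1 rose in U266/LR7 too, by 1.02 ± 0.17 (adjusted p = 0.00617). The U266/s arrays without melphalan, highest in DSG2 and CDH2, had that line's highest SNAI2, ZEB1, ZEB2, TWIST1 and TCF4 signal. They also had its lowest SNAI1 and TCF3 signal, while SNAI3 and TWIST2 overlapped between arrays with and without melphalan. A link between the repressors and DSG2 or CDH2 was not tested.

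**Figure D5:**
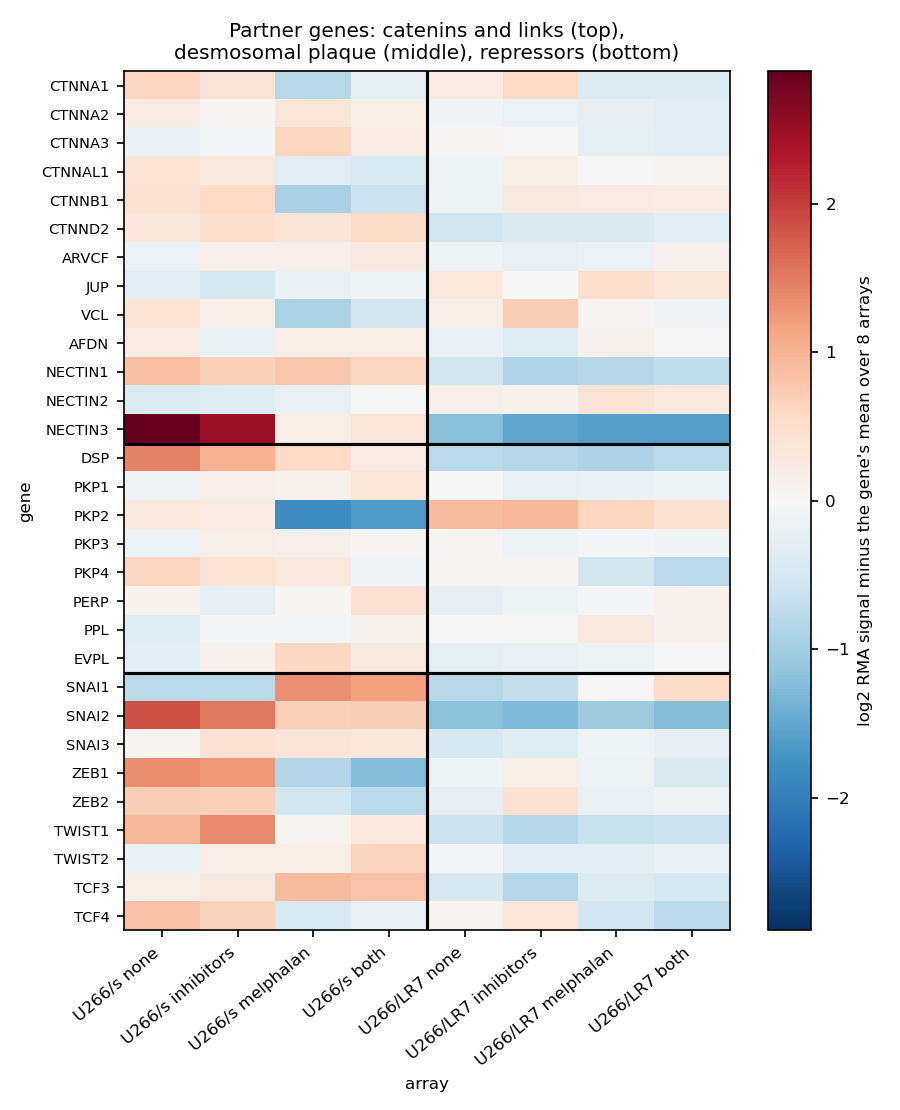
Log2 RMA signal of partner genes as the difference from each gene's mean over the 8 arrays (colour), for catenins and junction links, desmosomal plaque genes and cadherin gene repressors (vertical axis) on each array (horizontal axis). NECTIN3, DSP and SNAI2 are lower on the U266/LR7 arrays, and PKP2 is lowest on the U266/s arrays with melphalan.

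Genes of protocadherin promoter choice and silencing fell with melphalan in U266/s in 11 of 14 cases and rose in 0. Over all genes 24.9% fell and 18.4% rose, and the median difference was -1.08 for the list against 0.08. All 14 lay above the floor on every array, unlike many of all genes. Among the 9208 genes above the median signal 5573 were called, 1859 of them higher, with a median of -0.17. The differences were -2.04 ± 0.13 for SMC3 (limma adjusted p = 2.63e-06), -1.99 ± 0.16 for STAG2 and -1.66 ± 0.20 for NIPBL, all of the cohesin complex or its loader, and -1.18 ± 0.14 for CTCF. In U266/LR7 2 of 14 fell (14.3%, against 3.61% of all genes), STAG1 (-1.72 ± 0.19) and SMCHD1, a silencing protein (-0.70 ± 0.14). Between lines 5 of 14 were called (35.7%, against 33.5%), 3 higher, WAPL at 0.95 ± 0.23 first, and 2 lower, DNMT3A at -0.78 ± 0.11 first. CTCF lay between 9.96 and 10.10 on the U266/LR7 arrays.

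Among sheddases and gamma-secretase genes, which cleave cadherins, 2 of 7 were higher and 1 lower in U266/LR7 (42.9% called, against 33.5% of all genes), and 2 fell with melphalan in U266/s (28.6% called, against 43.4%). ADAM10, the main cadherin sheddase, changed by -1.21 ± 0.13 in U266/s (limma adjusted p = 3.07e-05) and by -0.65 ± 0.13 in U266/LR7 (0.0136). The sheddase ADAM17 was called lower in U266/s, at -1.20 ± 0.17. APH1B, a gamma-secretase subunit, was higher in U266/LR7 by 1.31 ± 0.17. Of 9 distant cadherin relatives outside the family rule, 5 were lower in U266/LR7 and 1 higher (66.7% called, against 33.5%), with FJX1, the four-jointed homologue tied to FAT signalling in flies, at -1.98 ± 0.30 (adjusted p = 0.00223). CELSR3, a seven-pass cadherin, rose by 1.18 ± 0.14 with melphalan in U266/s (6.6e-05).

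Markers of other cell types were compared because cadherins mark many tissues. Of 9 epithelial markers measured, 6 to 7 were above the floor on U266/s arrays and 4 to 5 on U266/LR7 arrays. The list's mean signal was 6.58 to 6.76 in U266/s and 6.37 to 6.49 in U266/LR7. Between lines 1 marker was called higher and 2 lower in U266/LR7 (33.3% called, against 33.5% of all genes). EPCAM, an epithelial adhesion protein, had 8.05, 7.74, 5.83 and 6.43 in U266/s (untreated, inhibitors, melphalan, both) and 5.25 to 5.48 in U266/LR7, and its 2 highest arrays were those of DSG2. Its line difference was -1.62 ± 0.35 (limma adjusted p = 0.00971), and it fell by 1.77 ± 0.20 with melphalan in U266/s (3.87e-05). The list's mean includes EPCAM and was not taken without it. CLDN1 and GRHL2, also epithelial, were under the floor on every array, and KRT8, a keratin, was higher in U266/LR7 by 0.87 ± 0.14. KRT8 and the keratins KRT14, KRT18 and KRT19 were above the floor on every array of both lines. The part of other cells in the DSG2 result was not tested.

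Of the 10 stromal markers, 5 were above the floor on each U266/LR7 array and 4 to 5 on U266/s arrays. COL1A1, COL1A2, COL3A1 and PDGFRB were above it on every array. DCN, LUM, POSTN, FAP and PDGFRA were under it on every array. The list's mean was 5.54 to 5.70 in U266/LR7 and 5.28 to 5.51 in U266/s. THY1 was higher in U266/LR7 by 3.04 ± 0.15. Endothelial means were 5.89 to 5.94 and 5.82 to 6.07, with 4 and 4 to 5 markers above the floor in the same order of lines. PECAM1, CLDN5, ROBO4 and ESAM were above it on every array, and VWF, KDR and TEK under it throughout. PECAM1 was higher in U266/LR7 by 1.39 ± 0.16. Neural means were 6.19 to 6.29 and 6.07 to 6.18, with 5 and 4 to 5 of 7 markers above the floor. RBFOX3, SYP, GFAP and NEFL were above it on every array, and STMN2 and DCX under it throughout. MAP2 was higher in U266/LR7 by 1.29 ± 0.19.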

How the data were processed

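Total RNA of 8 samples was hybridised to one-colour Affymetrix arrays, 1 per sample. The log2 values deposited by the authors come from RMA in Affymetrix Expression Console, per the submitters' processing notes, and no version is given in the sources used here. Of 33297 clusters, 19460 had 1 gene symbol in the platform annotation and gave 18417 genes, each read from its cluster of highest mean. All 79 members matched the reference gene table. The members, gene lists and rules were chosen with earlier results of these data known.

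Fits used limma 3.58.1 in R 4.3.3 over all genes, with trended empirical Bayes variances and a Benjamini-Hochberg threshold of 0.05. The additive model (line, melphalan, inhibitors) leaves 4 residual degrees of freedom, and its residual holds the interactions. A model with a melphalan by line term (3 residual degrees of freedom) gave the melphalan difference within each line from 4 arrays. Separate cultures are not stated, so the p-values reflect only how far these arrays scatter, which can be technical, and their number limits the precision. The fits were also run on simulated data with independent noise and set changes. Those data held neither the narrower range of the U266/s melphalan arrays nor, for the additive fit, any interactions. They therefore do not test how these affect the calls.

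Named were up to 8 members called in each direction of a comparison, the 3 largest where none was called, a preset list of classical, desmosomal and FAT cadherins, members above the floor on all arrays, and up to 3 called partners per list, direction and comparison. Other called members are given by value, and neighbouring genes were chosen after values were seen. Alternatives were median centring, quantile and cyclic loess normalization, genes above the median signal, the mean of a gene's clusters, no trend, other model terms, other floors, and leaving out each array. Promoter and microRNA sequences came from RefSeq on GRCh38.p14, in which 57 members had a promoter. Array coordinates were not used here.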

Additional observations from a re-analysis of the deposited data

Results flagged for a closer look

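The melphalan difference differed between the lines, by the test of the difference itself, for 9 members. The terms, difference in U266/LR7 minus that in U266/s in log2 units, were 2.90 for DSG2, 2.56 for PCDH18, 1.74 for PCDHB14, 1.43 for CDH17, 1.41 for CDH2 and 0.84 for FAT4, and -2.53 for PCDH9, -1.71 for CDH18 and -0.89 for PCDHGB4. In 7 of the 9 genes the line with the lower signal was under the floor on all 4 of its arrays. The others were CDH17, close to the floor in U266/LR7, and PCDHGB4, above it on all 8 arrays.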

How the results depend on the processing

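With 1 array per condition, errors come from shared models, and low signal limits folds for members under the floor. Members called for the line difference numbered 12 to 22 with an array left out, 7 to 11 for the melphalan by line term, 13 to 29 for melphalan in U266/s, 2 in each case for melphalan in U266/LR7 and 0 for the inhibitors. Over all genes 4263 to 6727 were called for the line difference in these runs, against 6172 with all arrays, and the melphalan counts moved as well. With cyclic loess 17 members were called for melphalan in U266/s, and 7061 of all genes. Among genes above the median signal only 5 members could be tested, of which 1 was called for the line difference, 5 for melphalan in U266/s, 0 for melphalan in U266/LR7 and 1 for melphalan by line; fewer members entered. Members above the floor on all arrays numbered 0 with the median as floor and 38 with the quartile over all clusters, and members above it nowhere 65 and 21. Of the named members called, 8 of 18 kept their call in all alternatives for the line difference, 11 of 23 for melphalan in U266/s, 2 of 2 for melphalan in U266/LR7 and 7 of 9 for melphalan by line, and 0 of 52 called values changed sign, whereas 101 of 183 values of named members that were not called took both signs. Over all genes the share of higher calls for melphalan in U266/s was 42.5%, against 51.3% after median centring and 53.4% after quantile normalization. That for melphalan in U266/LR7 was 45.6%, but 36.3%, 35.8% and 30.6% after median centring, quantile and cyclic loess. That for melphalan by line was 74.9%, but 63.4%, 55.1% and 61.1%. No paired analysis was possible because the labels give no replicate numbers that groups share; the matched pairs in the text are arrays alike in all other treatments, and the additive model compares them jointly.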

Other observations

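Clusters with several symbols were outside the family rule. The 2 clusters shared by PCDH11X and PCDH11Y are given only as ranges over both clusters. They had 6.07 to 6.25 on the U266/LR7 arrays and 5.28 to 5.83 on the U266/s arrays, without overlap.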
